A study of Mus musculus with 7 samples.

Results

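The Hox genes of paralogue groups 9 and 10 were followed across 7 RNA-seq libraries of posterior mouse embryo tissue. The members were the rows of the deposited table named Hoxa9, Hoxb9, Hoxc9, Hoxd9, Hoxa10, Hoxc10 and Hoxd10, which is 7 of 25965 rows. They were taken by gene name and not by a cut on their values, but earlier results of these data were known. Group 9 has 4 members and group 10 has 3. Smchd1-null tissue, from MommeD1/MommeD1 embryos that carry the null MommeD1 allele on both chromosomes, gave 4 libraries, and it was compared with tissue of Smchd1 +/+ embryos, which gave 3. The series' design text gives 3 null samples where the sample labels give 4, and the 4 were used. Embryos of both groups were female, of the FVB/N strain and at E9.5. The piece cut behind the newest somite is named postsomitic mesoderm in the labels and presomitic mesoderm in the title, and it may hold other tissues of that axial level. The MommeD1 allele is carried by the whole embryo, so no cell type was targeted. Neither pooling of embryos nor separate embryos per library is stated, so the p-values below reflect library-to-library spread, which may be technical.

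Hox genes encode homeodomain transcription factors and lie in 4 clusters, Hoxa to Hoxd, in which genes are switched on in order of position, from the 3′ end (group 1) towards the 5′ end (group 13). Genes of groups 9 and 10 come on in the tail end of the embryo before groups 11 to 13, and in mouse the group 10 proteins are required to keep ribs off the lumbar vertebrae. Group 9 proteins act on the rib-bearing and lumbar levels and, in the limb field, on the position of the limb. Smchd1, a noncanonical member of the SMC family of chromosomal proteins, is needed for silencing on the inactive X chromosome and is known to act on some autosomal clusters, the Hox clusters among them.

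Libraries are lettered within each group, because column names give a genotype but no sample number. Null libraries had 22137823 to 23847381 reads in listed rows, against 19622596 to 23548995 for wild type. The values were scaled to a larger denominator, of which listed rows made up 34.3% to 37.4% in null and 28.8% to 37.9% in wild-type libraries. For that reason each library was centred on the median of its autosomal genes, and levels below are centred log2 RPM (reads scaled to that denominator) unless stated. The median log2 difference of all 13997 genes tested was 0.16 on the deposited scale and -0.03 after centring. Smchd1 had 1922 to 2372 reads in the null libraries, against 5572 to 6552 reads in the wild-type libraries, and its log2 difference was -1.67 (SE 0.07, limma adjusted p = 9.54e-05). All 10 presomitic mesoderm markers passed the filter on low values in this tissue, and their summed level was 359 to 419 RPM in the null libraries, against 341 to 403 RPM in the wild-type libraries. Every column name also ends in a number, 18, 21 or 22, which is not explained in the sources used here. Whether it marks the stage of an embryo, a library property or something else is unknown, and differences between numbers below cannot be assigned to any of these. Null library A and wild-type library B carry 18, null library D and wild-type library C carry 21, and null libraries B and C and wild-type library A carry 22.

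All 7 members had over 1000 reads in every library, and no member passed the test of genotype over all 7 libraries. Hoxd10, the group 10 gene of the Hoxd cluster, had the largest difference of the 7. Its mean was 0.35 log2 higher in null tissue, with a 95% interval of -0.16 to 0.87 that narrowed to 0.14 to 0.46 when the number that ends each column name was in the fit, without passing once adjusted. The group 9 genes Hoxa9 and Hoxb9 had narrow intervals around 0. Of the 7 members 0 passed limma at an adjusted p under 0.05, 0 had an unadjusted p under 0.05, and 0 passed with voom on recovered reads. Over all genes tested, 8 of 13997, or 0.0572%, passed, and 1959 had an unadjusted p under 0.05. The median log2 difference was 0.02 over the members and -0.03 over all genes tested.

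In group 9, Hoxa9 had 5053, 5338, 4622 and 5724 reads in null libraries A to D, against 4765, 4487 and 4051 reads in wild-type libraries A to C. Its centred levels were 6.23, 6.26, 6.15 and 6.34 log2 RPM in the null libraries and 6.12, 6.29 and 6.17 log2 RPM in the wild-type libraries. The groups overlapped, with the lowest value in wild-type library A and the highest in null library D. The difference of Hoxa9 was 0.05 log2 (SE 0.06, limma adjusted p = 0.653), and its interval runs from 0.943-fold to 1.14-fold.

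Hoxb9, the last gene of the Hoxb cluster before a long gap that separates it from Hoxb13, was as even. It had 2564, 2798, 2348 and 2569 reads in the null libraries, against 2421, 2232 and 2055 reads in the wild-type libraries. Centred levels of Hoxb9 were 5.17 to 5.33 log2 RPM in the null libraries, against 5.14 to 5.29 log2 RPM in the wild-type libraries, so the groups overlapped. Its difference was 0.03 log2 (SE 0.06, limma adjusted p = 0.809), with an interval from 0.930-fold to 1.12-fold.

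Hoxc9 had 2999, 2893, 2399 and 3241 reads in the null libraries, against 2843, 2337 and 2388 reads in the wild-type libraries. Its centred levels were 5.20 to 5.52 log2 RPM in the null libraries, against 5.35 to 5.41 log2 RPM in the wild-type libraries. All 3 wild-type values lay inside the range of the null values. The difference of Hoxc9 was 0.02 log2 (SE 0.08, limma adjusted p = 0.917).

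Hoxd9 had the lowest difference of the group 9 genes. It had 1624, 1453, 1279 and 1540 reads in the null libraries, against 1448, 1618 and 1379 reads in the wild-type libraries. Centred levels of Hoxd9 were 4.60, 4.38, 4.30 and 4.45 log2 RPM in the null libraries, against 4.40, 4.82 and 4.61 log2 RPM in the wild-type libraries. Wild-type library B was the highest of all 7, and wild-type library A lay among the null values. The difference of Hoxd9 was -0.18 log2 (SE 0.11, limma adjusted p = 0.409), and it was 0.01 on the deposited scale.

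In group 10, Hoxa10 had 3152, 4169, 3609 and 4173 reads in the null libraries, against 4469, 2491 and 3140 reads in the wild-type libraries. Centred levels of Hoxa10 were 5.55, 5.90, 5.79 and 5.88 log2 RPM in the null libraries, against 6.03, 5.45 and 5.80 log2 RPM in the wild-type libraries. The highest and the lowest library were both wild type, and the lowest of each genotype was the one whose column name ends in 18. The genotype difference of Hoxa10 was 0.02 log2 (SE 0.14, limma adjusted p = 0.932).

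Hoxc10 had 2581, 2936, 2571 and 2889 reads in the null libraries, against 2705, 2531 and 2680 reads in the wild-type libraries. Its centred levels were 5.26 to 5.40 log2 RPM in the null libraries, against 5.30, 5.47 and 5.57 log2 RPM in the wild-type libraries. Wild-type libraries B and C lay above every null library, and wild-type library A lay among them. The difference of Hoxc10 was -0.12 log2 (SE 0.07, limma adjusted p = 0.404), and it was 0.07 on the deposited scale.

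Hoxd10 varied most. It had 1836, 3174, 2569 and 3329 reads in the null libraries, against 2367, 1277 and 2077 reads in the wild-type libraries. Its centred levels were 4.77, 5.51, 5.30 and 5.56 log2 RPM in the null libraries, against 5.11, 4.48 and 5.20 log2 RPM in the wild-type libraries. Null libraries B, C and D lay above all wild-type libraries, and null library A lay below wild-type libraries A and C. The genotype difference of Hoxd10 was 0.35 log2 (SE 0.22, limma adjusted p = 0.428). No member separated the genotypes fully, which 12.7% of all genes tested did.

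**Figure D1:**
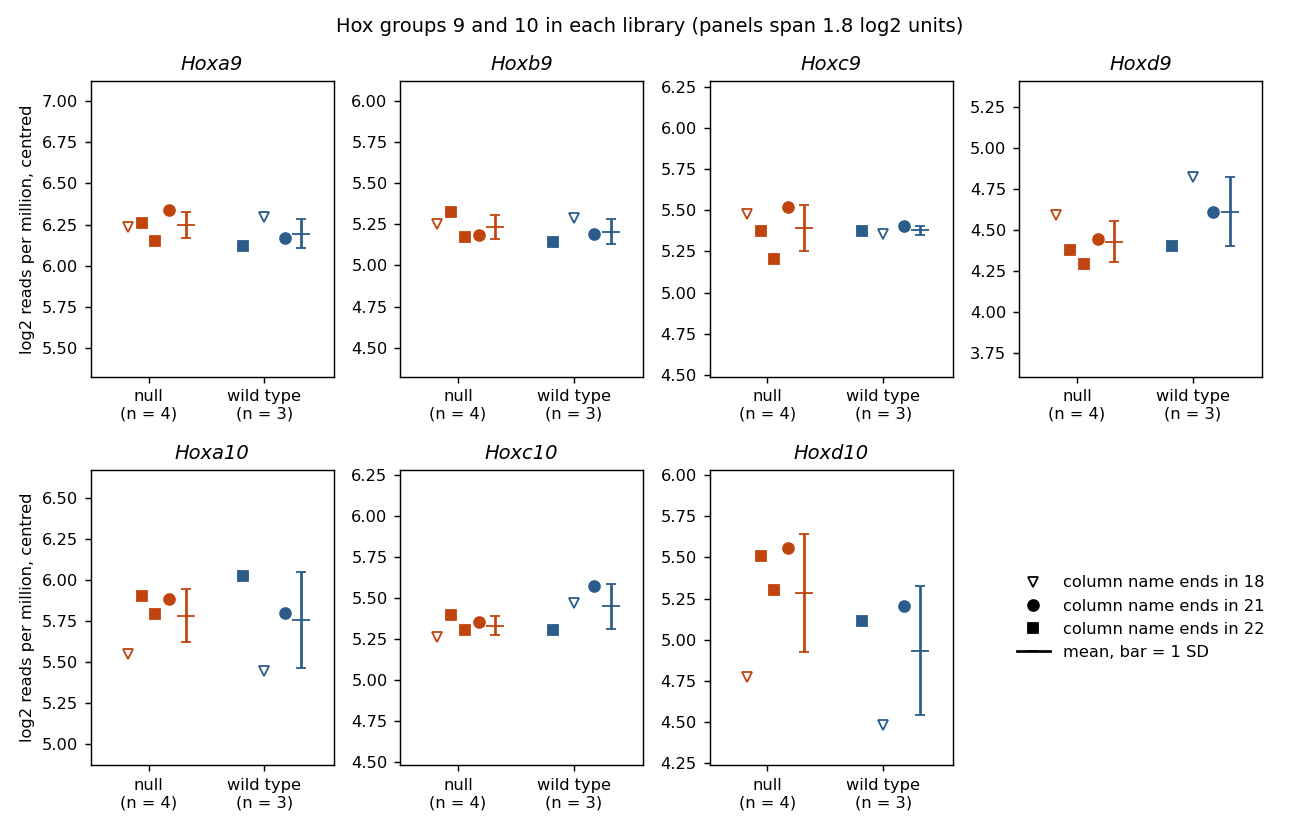
Centred log2 RPM of each member, with the 4 null libraries left of the 3 wild-type libraries; symbols give the number that ends the column name, and the bar beside each group is the mean with 1 SD. In Hoxd10 and Hoxa10 the open triangle (18) is the lowest library of each genotype, and in Hoxd9 it is the highest.

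The spread over libraries differed between members. Across all 7 libraries the SD of the centred log2 level was 0.08 for Hoxa9, 0.07 for Hoxb9, 0.10 for Hoxc9 and 0.11 for Hoxc10. It was 0.18 for Hoxd9, 0.20 for Hoxa10 and 0.39 for Hoxd10. The median SD over the 13997 genes tested was 0.13. Hoxa9, Hoxb9, Hoxc9 and Hoxc10 were thus at or below the spread of a typical gene, whereas Hoxd9, Hoxa10 and Hoxd10 were above it.

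Levels of different genes were compared only per kilobase of exon, as centred RPM per kb over the exons that GENCODE M21 gives each gene. In null tissue Hoxd10 averaged 21.95 ± 4.95 RPM per kb (SD, n = 4) and Hoxc10 21.1 ± 0.85 RPM per kb, and these 2 overlapped. Hoxc9 (17.4 ± 1.65 RPM per kb), Hoxa10 (16.9 ± 1.81), Hoxb9 (14.6 ± 0.73) and Hoxa9 (13.6 ± 0.74) followed, each overlapping the next. Hoxd9 was lowest at 10.1 ± 0.90 RPM per kb and lay below Hoxa9 in every null library. In wild-type tissue Hoxc10 came first at 22.9 ± 2.12 RPM per kb (SD, n = 3), clear of Hoxd10 at 17.2 ± 4.30 RPM per kb. Hoxc9 (17.1 ± 0.31), Hoxa10 (16.8 ± 3.32), Hoxb9 (14.4 ± 0.73), Hoxa9 (13.1 ± 0.83) and Hoxd9 (11.5 ± 1.68 RPM per kb) followed, and each overlapped its neighbour in this order. The order depends on the length used: scaled to the whole span of each row, Hoxd9 ranked 3 in null and 1 in wild-type tissue, and Hoxc9 came last in both groups.

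**Figure D2:**
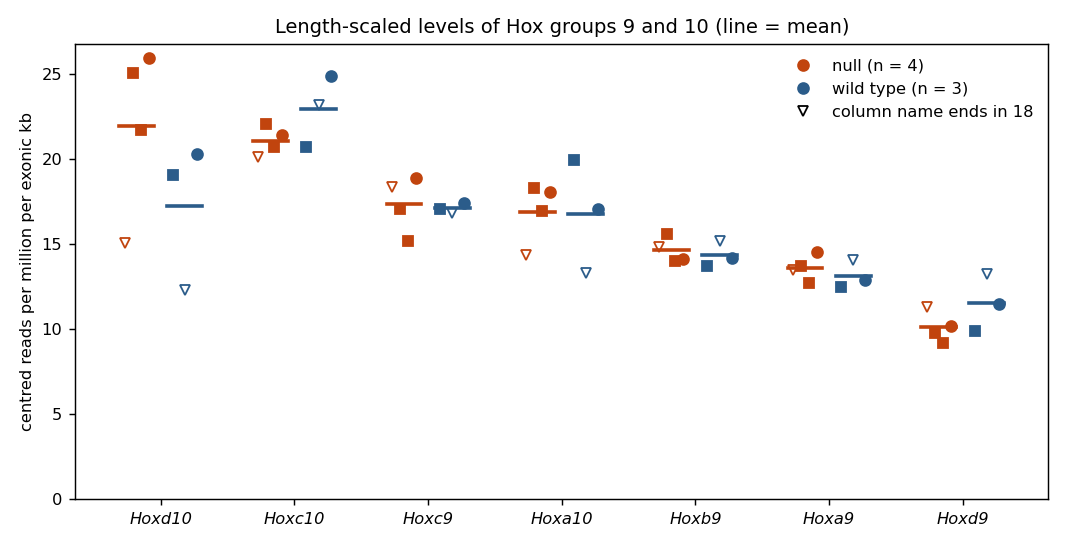
Centred RPM per exonic kilobase for each member, ordered by the null mean, with null libraries (left) and wild-type libraries (right) as points and the mean as a line. The spread of Hoxd10, from 15.1 to 25.9 RPM per kb in null and 12.3 to 20.3 in wild-type libraries, comes with the open triangles (18) at the low end.

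The genotype difference of Hoxd10 was close in size when the number in the column names was held fixed. Hoxd10 was higher in null libraries within both sets of numbers. Among the 2 libraries ending in 18, null library A lay 0.29 log2 above wild-type library B. Among the libraries ending in 21 or 22, the mean of Hoxd10 was 5.46 log2 RPM over 3 null libraries and 5.16 log2 RPM over 2 wild-type libraries, a difference of 0.30. With the number as a covariate the difference was 0.30 log2 (SE 0.07, unadjusted p = 0.00305, limma adjusted p = 0.125). In that fit 2690 of 13997 genes tested had an unadjusted p under 0.05. With the libraries ending in 21 or 22 alone the difference of Hoxd10 was 0.30 log2 (SE 0.09, limma adjusted p = 0.332). The difference of Hoxd10 was above 0 in all 22 alternative fits, at 0.13 to 0.72 log2. That of Hoxa9 was too, at 0.01 to 0.28 log2, and these fits share libraries. Hoxd10 passed in 0 of them, with limma adjusted p from 0.125 to 0.852, and had an unadjusted p under 0.05 in 5. It was 0.13 log2 without wild-type library B and 0.53 log2 without null library A. Hoxd9 was at -0.16 log2 with the number as a covariate (SE 0.07, limma adjusted p = 0.263), at -0.08 log2 without wild-type library B and at -0.29 log2 without wild-type library A. Hoxa10 was at -0.01 log2 with the number as a covariate (SE 0.07, limma adjusted p = 0.961).

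**Figure D3:**
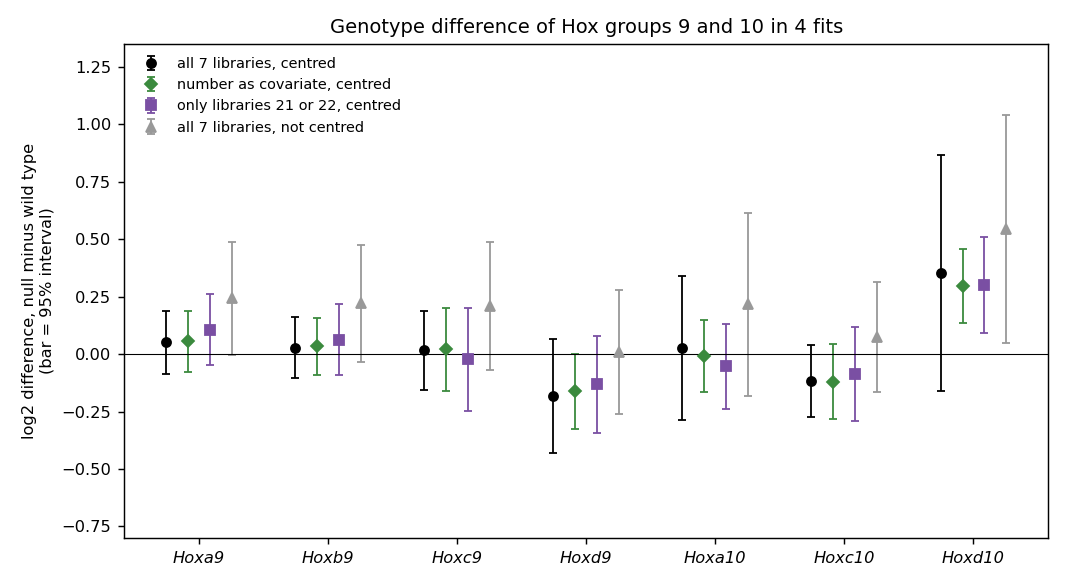
Log2 difference of null minus wild type for each member with its 95% interval, from 4 fits: all 7 libraries centred, the number as a covariate, only libraries ending in 21 or 22, and all 7 libraries on the deposited scale. Values on the deposited scale sit above the centred ones for every member, with Hoxd9 and Hoxc10 below 0 centred and above 0 as deposited, and the intervals of Hoxd10 and Hoxa10 narrow once the number is in the fit.

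Libraries ending in 18 had less Hoxd10 than libraries ending in 21 or 22, in both genotypes. Centred Hoxd10 was 4.48 and 4.77 log2 RPM in the 2 libraries ending in 18, against 5.11 to 5.56 log2 RPM in the 5 others, and the groups did not overlap. In a fit with genotype and number, the difference of 18 minus 21 or 22 was -0.68 log2 (SE 0.07, 95% interval -0.86 to -0.50, limma adjusted p = 0.0463), or 0.624-fold. It was -0.68 log2 in null tissue and -0.68 log2 in wild-type tissue, with 1 library ending in 18 in each genotype, so whether the genotypes differ in this was not tested on replicates. Of the 7 members 1 passed, and 24 of 13997 genes tested, or 0.171%, passed, while 2471 had an unadjusted p under 0.05. The call of Hoxd10 depends on the fit. It passed in 8 of 18 alternatives, with a difference of -0.80 to -0.65 log2 throughout and adjusted p from 0.00128 to 0.412, and it was lost with no filter, no prior trend, array weights or voom, and when null library A or B or wild-type library A, B or C was left out.

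Hoxa10 had the same direction in both genotypes without passing. Its centred levels were 5.45 and 5.55 log2 RPM in the libraries ending in 18, against 5.79 to 6.03 log2 RPM in the others, and the groups did not overlap. The difference of Hoxa10 was -0.38 log2 (SE 0.07, limma adjusted p = 0.109), with -0.31 in null tissue and -0.47 in wild-type tissue. Hoxd9 lay the other way, with 4.60 and 4.82 log2 RPM in the libraries ending in 18, against 4.30 to 4.61 log2 RPM in the others, which overlap. Its difference was 0.27 log2 (SE 0.08, unadjusted p = 0.0096, limma adjusted p = 0.172). The differences of Hoxa9 (0.06), Hoxb9 (0.07), Hoxc9 (0.04) and Hoxc10 (-0.03 log2) were small, with limma adjusted p from 0.541 to 0.847, and their groups overlapped; on the deposited scale Hoxa9, Hoxb9 and Hoxc9 were at -0.06, -0.05 and -0.08 log2. The groups thus did not overlap for 2 of 7 members, against 15.9% of all genes tested.

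Genes of groups 11 to 13 had larger differences between numbers than the members. Of 11 tested Hox genes of groups 8 and 11 to 13, 4 passed as lower in libraries ending in 18, all of groups 11 and 12, and 0 passed as higher. Their median difference was -1.54 log2, against 0.03 log2 over all genes tested. That median includes Hoxc12 and Hoxc13, whose passing of the filter is described below. Hoxa11 had 653 and 1477 reads in the libraries ending in 18, against 1880 to 3037 reads in the others, and fell by 1.15 log2 (SE 0.14, limma adjusted p = 0.0463). Its row overlaps Hoxa11as on the opposite strand, and reads in the overlap cannot be told apart. Hoxc11 had 179 and 635 reads in the libraries ending in 18, against 1002 to 2127 reads in the others, and fell by 1.97 log2 (SE 0.22, limma adjusted p = 0.0463). Hoxd12 had 4 and 100 reads, against 220 to 1596 reads (limma adjusted p = 0.0463). Hoxc12, the fourth, had 1 and 3 reads, against 25 to 268 reads, but it passed the filter on low values only through null libraries B, C and D, which end in 21 or 22, so its call follows from that choice and is not counted as support. These calls depend on the fit as that of Hoxd10 does: Hoxa11 passed in 7 of 18 alternatives, Hoxc11 in 9 and Hoxd12 in 9. None of the genes tested passed with no filter, no prior trend, array weights or voom, or without null library B or any 1 wild-type library. Hoxd11 had 602 and 2159 reads, against 2743 to 4881 reads, and a difference of -1.54 log2 that missed the threshold (limma adjusted p = 0.07). In the Hoxa and Hoxd clusters the difference of the group 13 gene was smaller than that of the nearest tested gene. Hoxa13, whose groups overlapped, was 0.552-fold, against 0.452-fold for Hoxa11. Hoxd13 was 0.251-fold, against 0.0400-fold for Hoxd12, which rests on the 4 and 100 reads above. Hoxc13 passed the filter through the same libraries as Hoxc12 and 1 more ending in 22. It was 0.135-fold, with 3 and 51 reads in the libraries ending in 18, against 55 to 226 reads in the others. Its difference is favoured by that choice, as is the 0.0249-fold of Hoxc12, so the 2 genes are not compared. Of the 3 group 13 genes 0 passed (limma adjusted p from 0.11 to 0.324), and the order of the groups was not tested. On the 3′ side the differences were 0.33 log2 for Hoxb8 (adjusted p = 0.109), 0.16 for Hoxc8 and 0.17 for Hoxd8. Of the 24 rows that passed between numbers, 8 lie in the 4 Hox clusters, where 58 rows were tested. These 8 include overlapping rows that share reads, and Hoxc12, whose call is not counted as support.

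**Figure D4:**
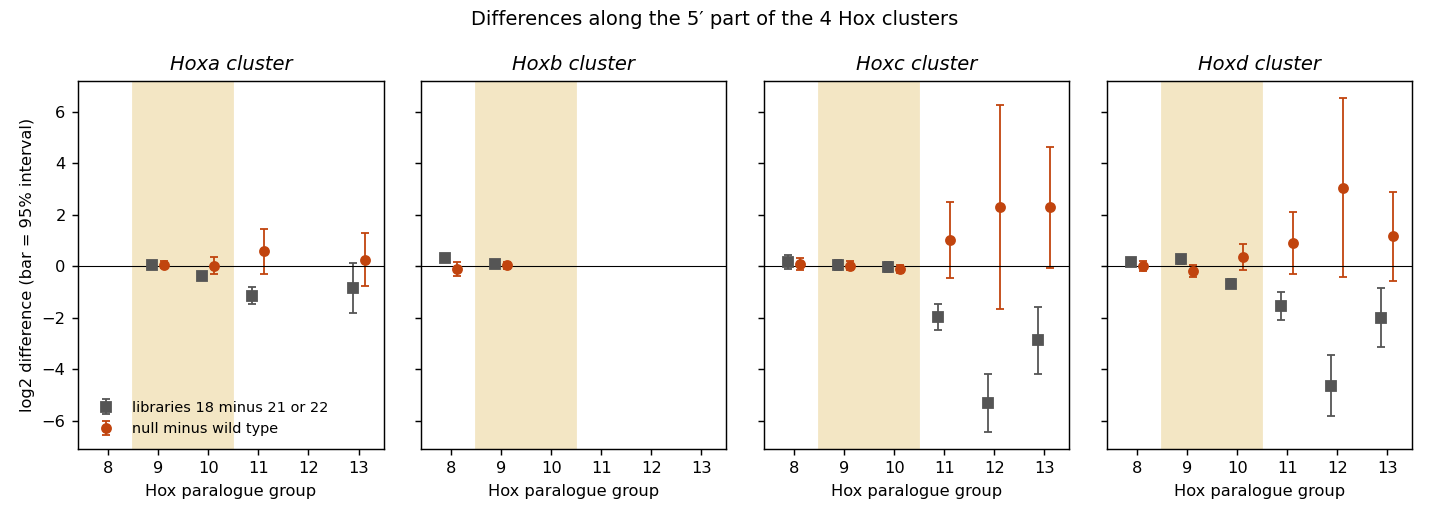
Log2 difference with 95% interval for the tested Hox genes of groups 8 to 13 in each cluster, for libraries ending in 18 minus those ending in 21 or 22 (squares) and for null minus wild type (circles); groups 9 and 10 are shaded. In the Hoxa and Hoxd clusters the squares lie slightly above 0 at group 9 and below 0 at group 10, and in the Hoxc cluster they lie near 0 at group 10 and below 0 at group 11.

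Between genotypes the same 11 flanking genes had a median difference of 0.89 log2, and 0 passed. That median includes Hoxc12, at 2.30 log2, which passed the filter on low values only through null libraries B, C and D. Its genotype difference is therefore favoured by that choice and is not counted as support. Hoxd11, the neighbour of Hoxd10, had 2159, 4881, 3685 and 4457 reads in the null libraries, against 3186, 602 and 2743 reads in the wild-type libraries. Its difference was 0.89 log2 (SE 0.52, limma adjusted p = 0.409). Hoxa11, next to Hoxa10, had a difference of 0.59 log2 (SE 0.38, limma adjusted p = 0.436). Hoxc11, next to Hoxc10, had a difference of 1.02 log2 (SE 0.65, limma adjusted p = 0.428). For each of these 3 genes wild-type library B was the lowest of the 7. Among libraries ending in 21 or 22 the differences were 0.40 log2 for Hoxd11, 0.30 for Hoxa11 and 0.55 for Hoxc11.

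The sum of presomitic mesoderm markers was lower in libraries ending in 18. Neural tube, somite and endothelial sums overlapped between numbers, with wild-type library B at the extreme of each. The part of these sums in the Hox values was not tested. Presomitic mesoderm markers summed to 341 and 359 RPM in the libraries ending in 18, against 378 to 419 RPM in the others. Neural tube markers summed to 48.8 and 94.4 RPM, against 21.4 to 61.7 RPM, and somite markers to 42.2 and 90.1 RPM, against 21.5 to 60.1 RPM. Endothelial markers summed to 118 and 167 RPM, against 162 to 227 RPM. The presomitic mesoderm list was split: of its 10 markers, 2 had a difference above 0 between numbers. Dll1 was at 6.74 log2 RPM in wild-type library B, the highest of the 7 libraries, and at 6.01 in null library A, the lowest. Wnt3a had 118 reads in wild-type library B and 1239 in null library A, against 1102 to 1752 reads in the libraries ending in 21 or 22. No row of any marker list was at 0 reads in every library. Of the listed markers 0 passed in this comparison, and 6 of 10 presomitic mesoderm and 4 of 5 endothelial markers were lower at an unadjusted p under 0.05. Over all genes tested, 2471 of 13997 had such a p between numbers, in either direction. In bulk tissue fewer cells of a type and less RNA per cell cannot be told apart. Between genotypes, notochord markers summed to 31.5 to 40.5 RPM in the null libraries, against 20.2 to 24.5 RPM in the wild-type libraries. Hindgut markers summed to 103 to 123 RPM, against 76.0 to 119 RPM, which overlap. At an unadjusted p under 0.05, 3 of 5 notochord and 5 of 7 hindgut markers were higher in null tissue, and 0 passed. Over all genes tested, 1959 of 13997 had such a p between genotypes, in either direction. The part of these markers in the Hox values was not tested.

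The promoters of the Hoxa and Hoxd members are shown because group 10 lay lower and group 9 did not in libraries ending in 18. RefSeq start sites (GRCm38.p6) matched 4 of 7 members by symbol, and Hoxb9, Hoxc9 and Hoxc10 are named only. Each window holds the 250 bases before a start site, read 5′ to 3′ on the gene's strand, and the one of Hoxd9 stops after 167 bases, where its row begins. The windows of Hoxd10, Hoxa9 and the 3′ start site of Hoxa10 lie inside the rows of these genes. The one of the 5′ start site of Hoxa10 lies before its row. Capitals mark TTTAT, the core letters bound by caudal-type (Cdx) and posterior Hox factors, TGATNNAT, a Pbx-Hox composite, or CCAAT, on either strand.
Hoxd10, chr2:74691641-74691890, plus strand: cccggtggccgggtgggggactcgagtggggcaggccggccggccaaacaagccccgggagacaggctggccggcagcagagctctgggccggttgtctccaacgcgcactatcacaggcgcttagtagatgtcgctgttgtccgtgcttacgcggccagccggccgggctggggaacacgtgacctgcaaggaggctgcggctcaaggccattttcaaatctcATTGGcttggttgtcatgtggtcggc
Hoxd9, chr2:74697513-74697679, plus strand: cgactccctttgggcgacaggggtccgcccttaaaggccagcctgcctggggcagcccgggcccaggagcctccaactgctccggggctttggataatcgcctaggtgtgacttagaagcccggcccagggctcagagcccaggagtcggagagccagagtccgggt
Hoxa10, 5′ start site, chr6:52240855-52241104, minus strand: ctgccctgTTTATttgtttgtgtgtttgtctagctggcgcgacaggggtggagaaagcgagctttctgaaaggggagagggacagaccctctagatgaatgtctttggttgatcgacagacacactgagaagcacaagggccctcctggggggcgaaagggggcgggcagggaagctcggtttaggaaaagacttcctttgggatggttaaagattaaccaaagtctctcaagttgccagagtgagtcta
Hoxa10, 3′ start site, chr6:52234940-52235189, minus strand: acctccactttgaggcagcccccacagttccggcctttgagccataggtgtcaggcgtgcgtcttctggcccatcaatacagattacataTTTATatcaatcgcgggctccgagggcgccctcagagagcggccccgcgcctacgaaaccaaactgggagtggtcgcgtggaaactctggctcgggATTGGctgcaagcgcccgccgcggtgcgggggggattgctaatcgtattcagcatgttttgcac
Hoxa9, chr6:52227371-52227620, minus strand: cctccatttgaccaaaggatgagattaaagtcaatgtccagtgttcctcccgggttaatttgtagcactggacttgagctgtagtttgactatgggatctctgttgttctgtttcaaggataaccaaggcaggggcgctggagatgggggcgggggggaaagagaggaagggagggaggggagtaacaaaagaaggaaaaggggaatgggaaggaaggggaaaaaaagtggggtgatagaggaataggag
Both Hoxa10 windows held TTTAT once, and those of Hoxd10, Hoxd9 and Hoxa9 held none. CCAAT stood once in the Hoxd10 window and once in the 3′ window of Hoxa10, and TGATNNAT stood in none of the 5. Of 32851 windows of the same length, 37.3% held TTTAT, 33.8% CCAAT and 7.68% TGATNNAT. The GC content was 65.6% in the Hoxd10 window, 51.6% and 59.2% in the Hoxa10 windows, 65.2% for Hoxd9 and 49.6% for Hoxa9, over 250 bases each.

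Some members share their span with other rows, and overlapping rows shared reads in this table. Tsix, which spans Xist on the opposite strand, had 20393 reads in null library A, against 20378 for Xist, and the 2 rows were as close in every other library. Rows that overlap a member are therefore not separate measurements of it. The row Gm20440 lies on the same strand as Hoxd10 (chromosome 2 from 74691090 to 74695106, mm10) and overlaps it by 3105 bases. It fell by 1.19 log2 in libraries ending in 18 (SE 0.13, limma adjusted p = 0.0463), and its genotype difference was 0.65 log2 (limma adjusted p = 0.415). The row 9930038K12Rik lies inside Hoxa9 (chromosome 6 from 52223100 to 52231089) over 2286 bases, and had 948 to 1273 reads in the null libraries, against 877 to 1136 reads in the wild-type libraries. Gm20398 covers all of Hoxc9 (chromosome 15 from 102976439 to 102985099) and 4451 bases of Hoxc10 (from 102966796 to 102971893). It had 12868 to 17263 reads in the null libraries, against 13099 to 15671 reads in the wild-type libraries. Hoxa10 (chromosome 6 from 52231197 to 52240854), Hoxd9 (chromosome 2 from 74697680 to 74700208) and Hoxb9 (chromosome 11 from 96271457 to 96276595) overlap no other row. Mir196a-2, between Hoxc10 and Hoxc9, had 2 to 6 reads in the null libraries, against 5 to 9 reads in the wild-type libraries.

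Genes known to act with or upstream of groups 9 and 10 gave no call between genotypes or between numbers. Of 9 tested TALE homeodomain cofactors (Pbx, Meis and Pknox), which bind DNA together with Hox proteins, 0 passed in either comparison. At an unadjusted p under 0.05, 3 were lower in null tissue and 3 higher in libraries ending in 18. Over all genes tested, in either direction, 1959 of 13997 had such a p between genotypes and 2471 between numbers. Pbx2 had a genotype difference of -0.16 log2 and Meis2 of -0.34 log2 (limma adjusted p = 0.352 each). Between numbers, the smallest p belonged to Meis3, at 0.23 log2 (adjusted p = 0.166), and to Meis2, at 0.28 log2 (adjusted p = 0.266).

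Of 16 tested inputs to posterior Hox genes, 0 passed in either comparison. At an unadjusted p under 0.05, 3 were higher and 3 lower in null tissue, and 1 was higher and 6 lower in libraries ending in 18. Cdx2, T and Wnt3a also stand among the presomitic mesoderm markers, so the counts of these lists are not separate. The same p was reached by 1959 of 13997 genes tested between genotypes and by 2471 between numbers. Cdx4, a caudal-type activator of posterior Hox genes encoded on the X chromosome, had 3056 to 3572 reads in the null libraries, against 1769 to 2352 reads in the wild-type libraries. Its groups did not overlap after centring, which held for 12.7% of all genes tested, and its difference was 0.44 log2 (SE 0.10, limma adjusted p = 0.212). Smad3, which carries TGF-beta and activin signals, had a difference of -0.14 log2 (limma adjusted p = 0.352). Between numbers, Fgf4, a tailbud growth factor, had 6 and 38 reads in libraries ending in 18, against 44 to 238 reads in the others. Its difference of -2.41 log2 missed the threshold (limma adjusted p = 0.0585). Fgf4, counted among the 6 lower, passed the filter on low values only through null libraries B, C and D, as Hoxc12 did. Its difference between numbers is therefore favoured by that choice and is not counted as support. T, the Brachyury gene of the tailbud, had a difference of -0.60 log2 between numbers (limma adjusted p = 0.146). It was -0.29 log2 in null and -0.94 log2 in wild-type tissue, with 1 library ending in 18 in each. Wnt3a was at -0.37 log2 in null and -3.19 log2 in wild-type tissue, and Cyp26a1 at -0.20 and -3.34 log2. Cyp26a1 had 200 reads in wild-type library B, against 2033 to 3100 reads in all other libraries.

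Of 15 listed chromatin regulators of Hox clusters, 12 were tested and 0 passed in either comparison. At an unadjusted p under 0.05, 1 was higher and 2 lower in null tissue, and 4 were higher in libraries ending in 18. Among all 13997 genes tested it was 1959 between genotypes and 2471 between numbers. The listed regulators with the smallest p between genotypes were the Polycomb genes Rnf2, at -0.17 log2, and Cbx2, at -0.24 log2 (limma adjusted p = 0.352 each). Between numbers they were Eed, a Polycomb gene, at 0.18 log2 (adjusted p = 0.166), and Ctcf, which encodes a boundary protein, at 0.13 log2 (adjusted p = 0.169).

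As a description, the genes outside the Hox clusters whose profile over the 7 libraries was nearest to the mean profile of the members were Prune, Clvs1, Kdm2b, Wwp1 and Cog7. Their root mean square differences from it were 0.0272, 0.0303, 0.0322, 0.0330 and 0.0335 log2, against a median of 0.138 over 12537 candidate genes. The mean profile itself moved little, with an SD of 0.07 log2 over the 7 libraries.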

How the data were processed

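RNA-seq values came from 1 table deposited by the authors, with log2 RPM values in 7 library columns, per the file headers. The submitters' processing notes name TopHat2 2.0.12, bcl2fastq, edgeR and the build mm10. How reads were counted, with which annotation and whether by strand, is not given in the sources used here. Names shared with GENCODE M21 (mm10) overlapped it in 99.6% of cases, so positions are in mm10. Whole reads were recovered from the values, since 100% of those below 1000 reads were whole within 0.01, and a row with 0 reads was listed at 0.9 read. A count of 0 allows up to 0.044 to 0.0507 RPM (3 reads), for counting error only.

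Columns were assigned to a genotype by name. The filter kept genes above 0 log2 RPM in 3 or more libraries, and each library was centred on its autosomal median. limma 3.58.1 in R 4.3.3 fitted lmFit and eBayes with a prior trend, with Benjamini-Hochberg adjustment over 13997 genes at 0.05. Genotype was fitted alone, and the number in the column names with genotype as a covariate. The scripts were tested on simulated data. Tables and figures used Python 3.11.15, pandas 2.3.3, numpy 2.4.6 and matplotlib 3.10.9. Libraries of a group differed by more than sampling noise, so none was treated as a duplicate.

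The members, lists and tests were chosen with earlier results of these data known. The named genes were all members, rows overlapping or within 5 kb of them (summarised where they added no value), flanking Hox genes of groups 8 and 11 to 13, the 2 genes of each context list with the smallest p, the 5 genes with the nearest profile and Smchd1. The motifs were chosen after the values were seen, and so were Dll1, Wnt3a and Cyp26a1 as genes to name. Alternatives were the deposited scale, other normalizations, filters, priors, weights and a pseudocount, leaving out each library, fits restricted or adjusted by number, and, chosen after seeing the data, voom on recovered reads, the first number in the column names as a block and the deposited scale within numbers 21 and 22. The planned count tests were set for a count table and were not run.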

Additional observations from a re-analysis of the deposited data

Results flagged for a closer look

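In 2 of 28 sets of values from the 4 null libraries, 1 library lay apart from the other 3 by Dixon's test, which chance does in about 1 in 20 sets. Presomitic mesoderm markers summed to 358.9 RPM in null library A, a gap to the next library of 0.938 of the whole range. Notochord markers summed to 40.52 RPM in null library B, a gap of 0.915 of the range. No member of groups 9 and 10 was set apart in this way.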

How the results depend on the processing

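No paired analysis was possible because the columns carry no sample number. The first number in the column names, also unexplained, is 4180 for null library D and wild-type libraries B and C and otherwise stays within a genotype. As a block, chosen after seeing the data, it left genotype to those 3 libraries, of which wild-type library B alone ends in 18: 0 members and 0 genes passed, 2143 genes had an unadjusted p under 0.05, the median difference of the members was 0.109 log2, Hoxb9 was at -0.0539 and Hoxd10 at 0.72 (limma adjusted p = 0.347). The count tests planned with other tools were not run, since the table holds log2 values. The count of members that passed between genotypes was 0 in every alternative. Between numbers, where Hoxd10 alone passed, it was 0 with no filter, no prior trend, array weights or voom with either scaling, and 0 to 1 when 1 library was left out. Of 280 values of single members under alternatives, 242 kept their direction and side of the threshold, 28 changed sign and 10 missed the threshold; those that changed sign reached at most 0.13 log2 in size. The cause of these changes was not tested.

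Over all genes, 8 passed between genotypes in the fit given, against 19 with cyclic loess, 16 with quantile normalization, 13 with array weights, 256 on the deposited scale within numbers 21 and 22, and 4 to 10 when 1 library was left out. Between numbers 24 passed, against 518 on the deposited scale, 13 with quantile normalization, 9 with a pseudocount, 37 with a robust prior, 0 with no filter, no prior trend, array weights or voom with either scaling, and 0 to 135 when 1 library was left out. It was 135 without null library A, 63 without null library D, 12 without null library C, and 0 without any 1 of wild-type libraries A, B and C or null library B. The median difference of the members was 0.22 log2 on the deposited scale and 0.15 on that scale within numbers 21 and 22; all genes shifted too, with a median of 0.16 on the deposited scale.

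Genotype differences that changed sign on the deposited scale were Hoxd9 (0.0095, and 0.0442 within numbers 21 and 22) and Hoxc10 (0.0738 and 0.0907). Array weights gave -0.0236 for Hoxc9 and -0.0054 for Hoxa10. Within numbers 21 and 22, Hoxc9 was at -0.0229 and Hoxa10 at -0.0530, and with the number as a covariate Hoxa10 was at -0.0070. Leaving out 1 library gave -0.00339 to 0.0693 for Hoxb9, -0.0264 to 0.0814 for Hoxc9, -0.288 to -0.0769 for Hoxd9, 0.129 to 0.526 for Hoxd10 and -0.13 to 0.16 for Hoxa10. Between numbers, the deposited scale gave -0.0568 for Hoxa9, -0.0479 for Hoxb9 and -0.0757 for Hoxc9. Cyclic loess gave -0.0027 for Hoxa9 and -0.0127 for Hoxc9, and quantile normalization -0.0017 for Hoxc9. Leaving out 1 library gave -0.019 to 0.153 for Hoxa9, -0.0343 to 0.112 for Hoxc9 and -0.093 to 0.0334 for Hoxc10. Depth did not limit the members, all of which had over 1000 reads in each library. It limits Hoxc12, Hoxc13 and Hoxd12, with 1, 3 and 4 reads in wild-type library B.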
